A study of Sus scrofa with 18 samples.

Results

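The miRNA content of exosomes isolated from the pig muscle named HC-L was compared with that of the HC-L muscle tissue itself. The comparison uses 6 of the 18 samples in the series, namely the 3 small RNA libraries of HC-L exosomes and the 3 of HC-L tissue, and every miRNA in the deposited count table. The labels give the animals of all groups as adults of the Hechuan black breed and as castrated sows, and name no treatment. Exosomes were prepared from minced and homogenised muscle by stepwise centrifugation, a filter step and a commercial kit, and their RNA was extracted with Trizol LS, against Trizol for tissue. Kind of sample and extraction reagent therefore cannot be told apart. The sample titles alone mark the exosome libraries, whose other labels are those of tissue. The labels do not say whether replicates are separate pigs, nor whether HC-L is oxidative or glycolytic, so p-values measure only the spread between these libraries.

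A miRNA is a short RNA cut from a hairpin precursor and loaded into an Argonaute protein, which it guides to matching mRNAs by the seed at its 5′ end. Both strands of a hairpin can give a mature miRNA, named 5p and 3p, and miRNAs that share a seed form a family. Exosomes are small vesicles that cells release and that carry RNA, and a homogenised muscle yields vesicles of muscle fibres along with those of vessels, blood, immune and connective cells. In whole tissue, fewer cells of a type and less RNA per cell cannot be told apart. Skeletal muscle is marked by the myomiRs, a set that includes miR-1, miR-133, miR-206, miR-208b and miR-499.

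Exosome libraries held 674732, 631193 and 275361 miRNA reads in replicates 1 to 3, and tissue libraries 7331196, 9016010 and 6944879. A floor of 3 reads was 4.45 to 10.9 counts per 1e6 reads in exosomes and 0.333 to 0.432 in tissue. Between 270 and 276 miRNAs had a read in an exosome library and between 337 and 338 in a tissue library. Spearman correlations across miRNAs, which share library and depth and are no independent replicates, were 0.916 to 0.957 among exosomes, 0.946 to 0.98 among tissues and 0.818 to 0.874 between the kinds. Exosome replicate 3 stood apart as the shallowest library and the one with the smallest part of miR-1. Of the 465 miRNAs in the table, 355 carry a miRBase name and 110 are numbered predictions of the authors.

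Both kinds of sample were dominated by the same myomiRs. miR-1, which promotes muscle differentiation, took 50.8%, 56.7% and 28.2% of the miRNA reads of the exosome libraries and 60.9%, 73.0% and 62.1% of those of tissue. The exosome percentages all lay under the tissue percentages, with exosome replicate 3 far below the rest. miR-206, the other member of its family and typical of regenerating and slow muscle, took 13.8%, 10.01% and 22.4% of exosome reads against 8.73%, 4.22% and 12.8% of tissue reads, and these groups overlapped. Wilson 95% intervals of all percentages in the 6 libraries were within 0.168 percentage points either way, and like the floors they cover counting error only.

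Behind the myomiRs, other abundant miRNAs took more of the exosome reads. miR-26a, which targets the methyltransferase Ezh2 in differentiating myoblasts, took 8.37%, 8.22% and 7.74% of exosome reads and 4.45%, 2.91% and 2.77% of tissue reads. miR-148a-3p took 4.96%, 4.10% and 5.79% against 2.38%, 2.30% and 0.866%. let-7f-5p took 1.46%, 1.504% and 1.51% against 0.741%, 0.621% and 0.701%. The exosome libraries lay above all tissue libraries for each of these 3 miRNAs. Once composition was scaled as described next, none of them passed the test, with log2 fold changes of 0.54 ± 0.39 (SE) for miR-26a, 0.56 ± 0.48 for miR-148a-3p and 0.36 ± 0.32 for let-7f-5p. The most abundant miRNAs made up most of each bar in the plot of library composition.

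**Figure D1:**
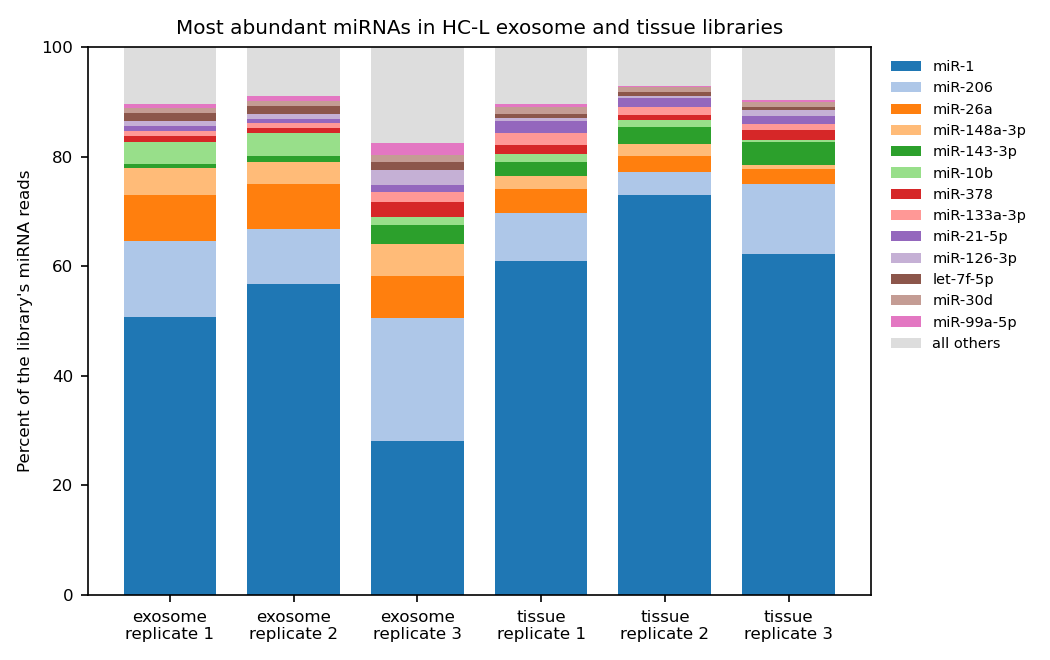
Percent of miRNA reads taken by the 13 miRNAs with the largest mean percentages in the 6 HC-L libraries, 1 stacked bar per library, with all other miRNAs in grey. miR-1 fills 28.2% to 56.7% of the exosome bars and 60.9% to 73.0% of the tissue bars.

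Because miR-1 weighs so much, values below are counts per 1e6 reads scaled by edgeR's TMM factors (CPM), and each change was also computed with 3 other scalings in edgeR and with DESeq2, 5 combinations in all. Of 239 miRNAs tested, 68 (28.5%) differed between exosomes and tissue at an adjusted p under 0.05 in edgeR's quasi-likelihood test. Exosomes were higher for 28 of them (11.7% of those tested) and lower for 40 (16.7%). Library values did not overlap between the groups for 117 of the 239 (49%), and all 68 called miRNAs were among these. With the replicate number as a block, 46 were higher and 72 lower, and these held all 28 and all 40. A miRNA said below not to pass or not to be called is one not called in the fit without this block. The median log2 fold change of all tested miRNAs was -0.231, and it moved to 0.620 with plain library totals, the setting farthest from it.

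The 28 higher miRNAs were called higher under all 5 combinations, and their plain percentages did not overlap either. Each alternative to TMM moved the median log2 fold change up, by 0.171 to 0.851, which favours higher calls over lower ones. A higher call under all 5, here and below, thus adds little to the call with TMM. Of the 40 lower miRNAs, 5 were called under all 5, namely miR-30e-5p, miR-101, miR-340, miR-450c-5p and miR-424-5p. The other 35 lost the call with plain library totals, where 44 were higher and 5 lower, and the percentages of 20 of the 40 did not overlap between exosomes and tissue. A lower value in what follows is thus one relative to the bulk of miRNAs other than miR-1. Depth differed in parallel, and with tissue thinned to 631193 reads a library, 160 miRNAs could be tested. Of the 28 and the 40, 22 and 17 were still called. Of the 28, miR-4332, miR-10390, novel_36, miR-205 and miR-92b-3p were not tested there, and miR-676-3p missed the call (adjusted p = 0.0513). Some of the 40, such as miR-424-5p and miR-542-5p, were not tested either. Exosome replicate 3, with 275361 reads, was still shallower than the thinned tissue.

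**Figure D2:**
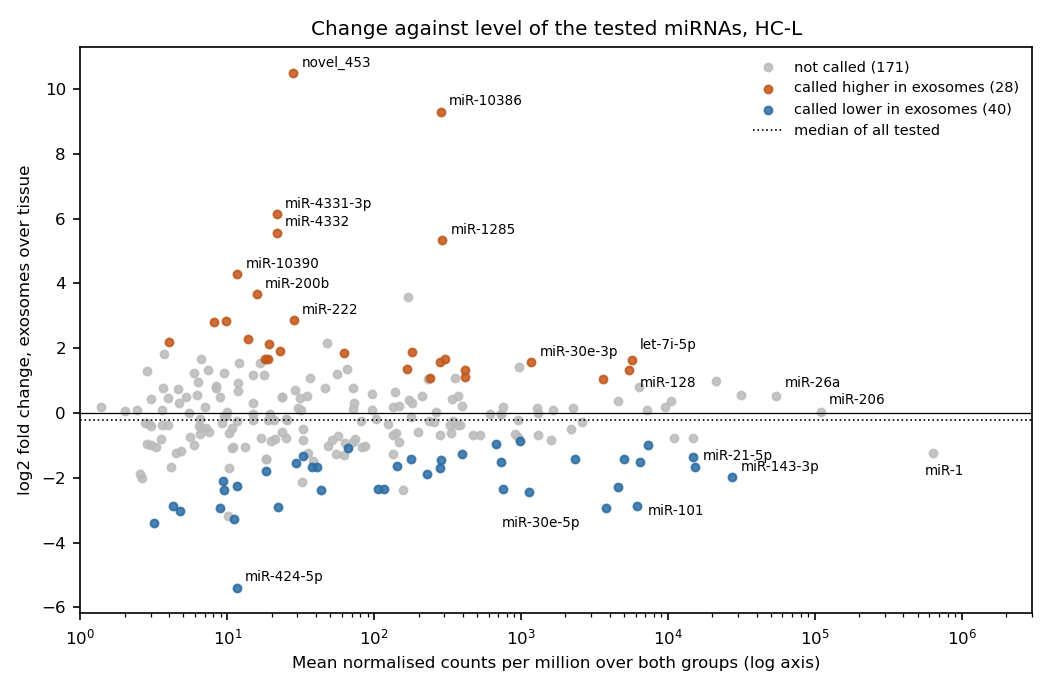
log2 fold change of exosomes over tissue against the mean CPM of both groups (log axis) for the 239 tested miRNAs. The 28 called higher reach farther from 0 than the 40 called lower, the dotted line marks the median of -0.231, and the height of novel_453, with no tissue read, depends on the prior count of the fit.

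The widest gaps were held by miRNAs that tissue nearly lacked. novel_453, a prediction of the authors, was at 69.8, 50.6 and 47.3 CPM in exosomes and had no read in any tissue library. Pooled over libraries this makes it at least 332-fold higher, against a floor of 3 reads over the tissue group. miR-10386 was at 119.8, 276.7 and 1299 CPM in exosomes and 0.934, 0.756 and 0.867 CPM in tissue. Every exosome library lay far above every tissue library, but exosome replicate 3 held 742 of the 1008 exosome reads. Its log2 fold change of 9.30 ± 1.09 (adjusted p = 0.000845) was 7.93 without that library. miR-1285 was at 439.6, 376 and 875 CPM in exosomes and 13.1, 13.4 and 15.3 CPM in tissue, again with no overlap and with exosome replicate 3 highest. It rose by a log2 fold change of 5.34 ± 0.43 (adjusted p = 0.000121).

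miR-4331-3p, the miRNA in the title of the series, had 27, 30 and 26 reads in exosomes and 4, 3 and 3 in tissue. In CPM these are 35.5, 47.4 and 45.5 against 0.623, 0.567 and 0.520, so the exosome libraries lay close together and far above tissue. The log2 fold change was 6.13 ± 0.45 (adjusted p = 0.000121), and the pooled ratio was 73.9 with an exact 95% interval from 38.2 to 160. That interval is for the reads summed over libraries, so it covers counting error only and not the spread between libraries. miR-4332 rose by 5.56 ± 0.85 (adjusted p = 0.00391), or 4.57 without exosome replicate 3. miR-10390 rose by 4.29 ± 0.79 (adjusted p = 0.00704), or 2.94 without exosome replicate 2, which held 31 of its 43 exosome reads. The predicted novel_36 rose by 2.82 ± 0.48 (adjusted p = 0.00604). These 7 miRNAs kept their call in each of the 6 fits that left out 1 library, and their functions in pig muscle are not described here.

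Of these, miR-1285 passed the filter on low counts in both groups. The other 6 passed through the exosome libraries, as did miR-200b, miR-205, miR-182, miR-222 and miR-92b-3p, so their difference was in part fixed by the filter. Of the 25 miRNAs that passed through exosomes alone, 11 were called higher, and of the 178 that passed in both groups, 17 were higher and 33 lower. The same holds the other way for the 19 that passed through tissue alone, of which 7 were called lower, namely miR-424-5p, miR-542-5p, miR-136-3p, miR-500-5p, miR-660, miR-374b-3p and miR-490-3p.

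Several miRNAs of immune cells were higher in exosomes. Of 7 tested miRNAs of myeloid and lymphoid cells, 3 rose, against 11.7% of all tested miRNAs, none fell, and the median log2 fold change was 1.67 against -0.231 for all miRNAs. miR-150, a miRNA of mature lymphocytes, was at 176, 286 and 392 CPM in exosomes and 51.8, 77.9 and 100.1 CPM in tissue, and the groups did not overlap. Its log2 fold change was 1.89 ± 0.40 (adjusted p = 0.0131), and the call was lost without exosome replicate 2 (adjusted p = 0.0512). miR-223, which is made by granulocytes and monocytes, was at 15.8, 33.2 and 45.5 CPM against 5.76, 5.29 and 10.4 CPM and rose by 2.12 ± 0.52 (adjusted p = 0.0176). That call was lost in 4 of the 6 fits without a library, those without exosome replicate 2 or 3 or tissue replicate 1 or 2 (adjusted p up to 0.0891). miR-155-5p, induced in activated immune cells, rose by 1.67 ± 0.48 (adjusted p = 0.0323), a call lost without exosome replicate 1 or 2 or tissue replicate 1 or 2 (adjusted p up to 0.162), with a log2 fold change of 1.08 without exosome replicate 2.

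The other immune markers did not pass. They ranged from -1.25 ± 0.54 for miR-146b to 2.15 ± 0.80 for miR-146a-5p, and with the replicate block these 2 were called, at adjusted p of 0.00473 and 3.62e-05, as was miR-142-5p higher (adjusted p = 0.00063). Summed over the list, these miRNAs took 0.0408%, 0.0526% and 0.166% of exosome reads and 0.0145%, 0.0100% and 0.0297% of tissue reads. Of the 2 red cell markers, miR-451 was at -0.00147 ± 0.31 and miR-144 at -1.71 ± 0.64, and neither passed the test, although the replicate block called miR-144 lower (adjusted p = 0.0298). The part of residual blood in these values was not tested.

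miR-221 and miR-222, neighbours on the genome and made by endothelial and other proliferating cells, both rose. miR-222 was at 34.2, 53.8 and 61.3 CPM in exosomes and 6.54, 3.97 and 9.71 CPM in tissue, which gave 2.87 ± 0.48 (adjusted p = 0.00548). miR-221-3p was at 32.9, 34.8 and 40.3 CPM against 6.38, 7.37 and 15.1 CPM, which gave 1.90 ± 0.45 (adjusted p = 0.0173). miR-222 kept its call in all 6 fits without a library, and miR-221-3p lost it without exosome replicate 1 or 2 or tissue replicate 1 or 2 (adjusted p up to 0.0869). No exosome library of either lay in the tissue range. miR-126-3p, the defining endothelial miRNA, did not follow. At 0.17 ± 0.33 it did not pass the test, and its 5p partner was at -1.25 ± 0.46, called lower with the replicate block alone (adjusted p = 0.000376).

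Epithelial miRNAs were rare in both kinds of sample. Of 7 counted by the authors, 5 could be tested, and the 3 called, all higher, passed the filter on low counts through exosomes alone, so their number supports no direction of the list. miR-429 had no read in the 6 libraries and miR-141 none in tissue. miR-200b, which holds cells in the epithelial state, was at 22.4, 36.4 and 29.8 CPM in exosomes and 1.71, 0.756 and 4.34 CPM in tissue. It rose by 3.67 ± 0.64 (adjusted p = 0.00604), or 4.59 without tissue replicate 3. miR-182 rose by 2.29 ± 0.45 (adjusted p = 0.00949), with an adjusted p of 0.0507 without exosome replicate 1. miR-205 had 12, 8 and 8 exosome reads and rose by 2.82 ± 0.80 (adjusted p = 0.0321), a call made in only 1 of the 6 fits without a library, that without tissue replicate 3, at 3.87. The summed list took at most 0.016% of the reads of an exosome library and at most 0.00137% of those of a tissue library, and where these miRNAs came from was not tested.

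The let-7 family, which restrains proliferation and growth genes, was the most abundant family called higher. Its summed 5p members with miR-98 were at 32310, 34900 and 30320 CPM in exosomes and 17150, 20540 and 17520 CPM in tissue. All exosome libraries lay above all tissue libraries, by a log2 fold change of 0.82 ± 0.26 (adjusted p = 0.0485), under all 5 combinations but in only 2 of the 6 fits without a library. The fits without exosome replicate 1 or 2 or tissue replicate 1 or 2 did not call it, with adjusted p up to 0.164. let-7c was the steadiest member, at 628, 572 and 572 CPM in exosomes and 240.5, 240.8 and 226 CPM in tissue, a log2 fold change of 1.33 ± 0.23 (adjusted p = 0.00604) called in all 6 such fits.

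let-7i-5p reached 6502, 6240 and 12900 CPM in exosomes against 2376, 2412 and 3449 CPM in tissue, with no overlap and with the highest value in exosome replicate 3. It rose by 1.64 ± 0.36 (adjusted p = 0.0145). let-7d-5p (1.37 ± 0.27), let-7d-3p (1.84 ± 0.44) and let-7a (1.06 ± 0.28) rose as well, with adjusted p of 0.00949, 0.0173 and 0.0271. Each of these 4 was called in 2 to 4 of the 6 fits without a library, and the calls were lost without exosome replicate 1 or 2 or tissue replicate 1 or 2, with the highest adjusted p at 0.121 for let-7a. In total 5 of 10 tested mature forms of the family rose, against 11.7% of all tested miRNAs, and none fell, with let-7e, let-7f-5p, let-7f-3p, let-7g and miR-98 between 0.21 and 1.06 and not called. Of these, miR-98 was called higher with the replicate block (adjusted p = 0.00155).

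Further rises came from single miRNAs. miR-128, enriched in brain and also made in muscle, where it represses IRS1 in mice, was at 8824, 10510 and 4010 CPM in exosomes and 3639, 3075 and 2574 CPM in tissue. It rose by 1.33 ± 0.38 (adjusted p = 0.0321), with exosome replicate 3 barely above tissue replicate 1, and the call was lost in 5 of the 6 fits without a library, all but that without exosome replicate 3 (log2 fold changes from 1.013 to 1.75). miR-1468, which is at 409, 499.6 and 350.1 CPM against 127, 133 and 164 CPM, rose by 1.57 ± 0.27 (adjusted p = 0.00604) and kept its call in all 6. miR-92a, of the miR-17-92 cluster, rose by 1.12 ± 0.27 (adjusted p = 0.0173), its family member miR-92b-3p by 2.18 ± 0.57 (adjusted p = 0.0238) from 13 exosome reads, and miR-676-3p by 1.66 ± 0.43 (adjusted p = 0.0232). Among the 6 fits without a library, miR-92a was called in 3, not without exosome replicate 1 or 2 or tissue replicate 2 (adjusted p up to 0.0902). miR-676-3p was called in 2, not without exosome replicate 1 or 2 or tissue replicate 1 or 2 (adjusted p up to 0.132). miR-92b-3p was called only without exosome replicate 2, and without tissue replicate 1, 2 or 3 it failed the filter and was not tested. miR-19b, another seed of the same cluster, fell by 2.38 ± 0.39 on the log2 scale (adjusted p = 0.00529).

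**Figure D3:**
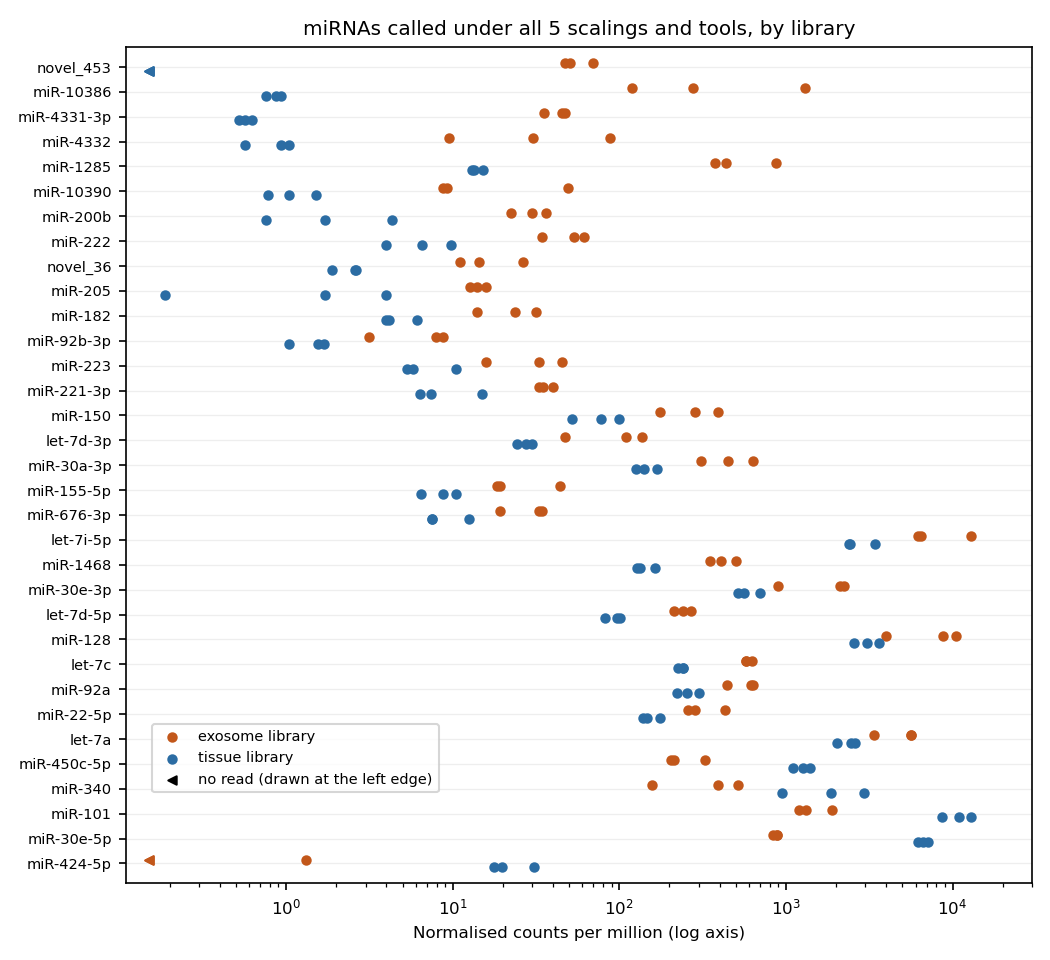
CPM (log axis) in each exosome and tissue library of the 33 miRNAs called under all 5 scalings and tools, 1 point per library, with arrows at the left edge for libraries with no read. Exosome and tissue points do not overlap in any row, and novel_453 has no tissue read.

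The 5p strands of the miR-30 family made up the clearest set of lower values. The family, which among other targets represses connective tissue growth factor, fell in sum by 1.32 ± 0.27 on the log2 scale (adjusted p = 0.0121). It was at 11990, 13050 and 9767 CPM in exosomes and 27650, 32810 and 26280 CPM in tissue, with no overlap. Its sum was called in 3 of the 6 fits without a library, the exceptions being without exosome replicate 1, tissue replicate 1 or tissue replicate 2 (adjusted p of 0.0639, 0.0608 and 0.054), and with plain library totals it stayed negative at -0.57 but was not called.

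miR-30e-5p was the member with the lowest value, at 888, 879 and 838 CPM in exosomes and 6617, 7129 and 6217 CPM in tissue. It fell by 2.94 ± 0.24 on the log2 scale (adjusted p = 0.000121), and its libraries within each group lay close together. miR-30a-5p followed with 1466, 1355 and 1840 against 6653, 7171 and 8703 CPM, a fall of 2.27 ± 0.26 (adjusted p = 0.000845), and miR-30b-5p fell by 1.87 ± 0.29 (adjusted p = 0.00391). Each of these 3 was called in all 6 fits without a library. miR-30c-5p fell by only 0.85 ± 0.24 (adjusted p = 0.0315), was called in none of those fits (adjusted p up to 0.19), and stood at 0.01 with plain library totals. miR-30d was at -0.78 ± 0.30 and not called.

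miR-101, which represses the methyltransferase EZH2, was at 1887, 1322 and 1194 CPM in exosomes and 10980, 12830 and 8618 CPM in tissue. The groups lay far apart, and it fell by 2.88 ± 0.31 on the log2 scale (adjusted p = 0.000609). miR-340 was at 391, 514 and 158 CPM against 1856, 2927 and 951 CPM, lowest in replicate 3 of both kinds, and fell by 2.43 ± 0.54 (adjusted p = 0.0145). Both kept the call in all 6 fits without a library and under all 5 combinations.

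The cluster of miR-424, miR-503, miR-450 and miR-542, an X-linked set in which miR-424 and miR-503 promote cell cycle exit of myoblasts in mice, had 4 of 8 tested members lower and none higher, against 16.7% lower of all tested miRNAs. Of the 4, miR-450c-5p and miR-542-3p passed the filter in both groups, and miR-424-5p and miR-542-5p through tissue alone, where they are high. miR-450c-5p was at 326, 206 and 214 CPM in exosomes and 1400, 1266 and 1108 CPM in tissue and fell by 2.34 ± 0.28 (adjusted p = 0.000982). miR-424-5p had 1 read in all exosome libraries together and 127, 94 and 177 in tissue. Summed over libraries this made tissue 44.7-fold higher, with an exact 95% interval from 7.98 to 1770 that covers counting error only. The fit called miR-424-5p (adjusted p = 0.00391) except without tissue replicate 1 or 3, where it failed the filter on low counts. miR-542-3p fell by 1.64 ± 0.37 (adjusted p = 0.0152) and miR-542-5p by 3.02 ± 0.78 (adjusted p = 0.0232) from 2 exosome reads. The miR-542-3p call was lost without exosome replicate 2 or tissue replicate 2 (adjusted p up to 0.06). That of miR-542-5p was kept without exosome replicate 3 and lost without exosome replicate 1 or 2 (adjusted p up to 0.0787). Without tissue replicate 1, 2 or 3 miR-542-5p failed the filter and was not tested. The other strand of the miR-424 hairpin, miR-424-3p, was at 1.54 ± 0.51 and called higher with the replicate block alone (adjusted p = 0.0117).

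Muscle miRNAs other than miR-206 lay under the median of all miRNAs or close to it. Of 8 tested in the striated muscle list, 3 fell, against 16.7% of all tested miRNAs, and none rose, with a median log2 fold change of -0.95. With the replicate block 5 of the 8 fell. miR-208b, encoded in an intron of the slow myosin gene MYH7, was at 25.0, 45.9 and 43.8 CPM in exosomes and 124, 175 and 286 CPM in tissue. It fell by 2.36 ± 0.43 (adjusted p = 0.00704) and was called in all 6 fits without a library. miR-499-5p, from an intron of another slow myosin gene, MYH7B, was at 2324, 2401 and 3473 CPM against 5235, 4903 and 11670 CPM, highest in replicate 3 of both kinds. It fell by 1.41 ± 0.39 (adjusted p = 0.0313), or by 0.793 and not called without tissue replicate 3.

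miR-133a-3p, which promotes myoblast proliferation, was at 8430, 7698 and 9002 CPM in exosomes and 26050, 23420 and 14490 CPM in tissue. It fell by 1.35 ± 0.31 (adjusted p = 0.0152), a call lost without exosome replicate 1 or 2 or tissue replicate 1 (adjusted p up to 0.0632). miR-1 was at -1.22 ± 0.62 (adjusted p = 0.165), and at -1.40 it was called with the replicate block. The block also called miR-148a-3p and miR-10b higher, at 0.73 and 0.89, and miR-378 and miR-30d lower, at -0.76 and -0.79.

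Single abundant miRNAs of smooth muscle and of fibroblasts were lower as well. miR-143-3p, a smooth muscle and mesenchymal miRNA, was at 7058, 9558 and 16730 CPM in exosomes and 28260, 52870 and 50130 CPM in tissue, without overlap. It fell by 1.98 ± 0.43 (adjusted p = 0.0141), a call lost without exosome replicate 1 or 2 (adjusted p up to 0.0672), and its plain percentages overlapped. It was the only one called of 4 tested in the smooth muscle list, whose median of -0.25 lay by that of all miRNAs (-0.231) and turned positive, to 0.83, with plain library totals. Its genomic neighbour miR-145-5p was at -0.26 ± 0.42 and not called. miR-21-5p, raised in fibrosis, was at 7173, 8497 and 6216 CPM against 24550, 27470 and 16990 CPM and fell by 1.66 ± 0.30 (adjusted p = 0.00704), called in all 6 fits without a library. Of 7 tested members of the fibroblast list, 3 fell, against 16.7% of all tested miRNAs, and none rose, with a median of -1.28. The other 2 of these 3 were the 5p strands of miR-199a and miR-199b, at -1.28 ± 0.41 and -1.46 ± 0.36, called in 1 and 2 of the 6 fits without a library and in none of those without exosome replicate 1 or 2 or tissue replicate 1 or 2 (adjusted p up to 0.146). Their 3p strands, at 678, 545 and 965 CPM in exosomes and 751, 777 and 686 CPM in tissue, overlapped and were at -0.02 ± 0.27. These 3p strands have equal counts in every library but stand as 2 of the 7 tested members.

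The remaining falls were spread over several families. miR-16, a cell cycle miRNA, fell by 1.43 ± 0.32 (adjusted p = 0.0145), miR-29b, which represses collagens, by 1.67 ± 0.37 (adjusted p = 0.0145), miR-24-3p by 1.42 ± 0.28 (adjusted p = 0.00949) and miR-27b-3p by 1.00 ± 0.24 (adjusted p = 0.0173). miR-218-5p fell by 2.35 ± 0.55 (adjusted p = 0.017), or by 1.71 without tissue replicate 2. miR-7134-5p and miR-425-3p fell by 1.69 ± 0.51 and 1.66 ± 0.49, each called only in the fit without tissue replicate 3 among the 6. All of these lost the call with plain library totals, and each lost it in at least 1 fit without a library, exosome replicate 1 for miR-24-3p and miR-29b and exosome replicate 2 for miR-16 and miR-218-5p among them.

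Several other lists held few calls, apart from the neural list. Of the 9 tested members of the miR-10, miR-99, miR-100 and miR-125 group, which is expressed along the body axis and in many mesenchymal cells, none was called and the median log2 fold change was 0.02. None of the 4 members of the miR-181 family was called, with a median of -0.22 that turned to 0.50 with plain library totals. Of 8 tested miRNAs of the imprinted DLK1-DIO3 cluster, miR-136-3p alone was called, and it fell by 2.25 ± 0.54 (adjusted p = 0.0173) from 8 exosome reads, after passing the filter through tissue alone. Its call was lost without exosome replicate 1 or 2 (adjusted p up to 0.0724), and it failed the filter without tissue replicate 1 or 3. Of 5 miRNAs listed as neural, miR-218-5p and miR-7-3p fell, against 16.7% lower of all tested miRNAs. The list is short, and its miR-9 and miR-9-1 have equal counts in every library. miR-7-3p fell by 1.79 ± 0.50 (adjusted p = 0.0313). Among the 6 fits without a library it was called only without tissue replicate 3 and failed the filter without tissue replicate 1 or 2. With the replicate block more were called, namely miR-10b and miR-99a-5p higher (adjusted p of 0.00263 and 0.00641), and miR-125b (0.00641), miR-181a (0.00511) and miR-381-3p of the DLK1-DIO3 cluster (0.00063) lower.

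Reads were then summed over families of shared seed, taken from miRNA names since no mature sequences were used here. Of 192 features, 47 (24.5%) were called, and 10 of the 33 families tested were among them, 5 higher and 5 lower. miR-200b, as miR-429 had no read (3.76 ± 0.62), miR-221 with miR-222 (2.48 ± 0.43), the 3p strands of miR-30a and miR-30e (1.65 ± 0.36), miR-32 with miR-92 and miR-363 (1.03 ± 0.28) and let-7 were higher under all 5 combinations. miR-19 (-2.27 ± 0.38), the 5p strands of miR-30, the miR-15 family (-1.29 ± 0.31), miR-133 (-1.21 ± 0.31) and miR-27 (-0.84 ± 0.26) were lower, none of them with plain library totals. miR-200b, miR-221 with miR-222, and miR-19 were called in all 6 fits without a library. With the replicate block 8 families were higher and 11 lower, all 10 included.

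Members of a family did not always move alike. In the family of miR-32, miR-92 and miR-363, miR-92a and miR-92b-3p rose while miR-32, with 10 reads in all exosome libraries, fell by 2.91 ± 0.62 (adjusted p = 0.0136). That call was lost without exosome replicate 1 (adjusted p = 0.0512), and the value was -2.32 without tissue replicate 2. In the miR-15 family the tested members ran from -5.39 for miR-424-5p to 0.50 for miR-497.

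**Figure D4:**
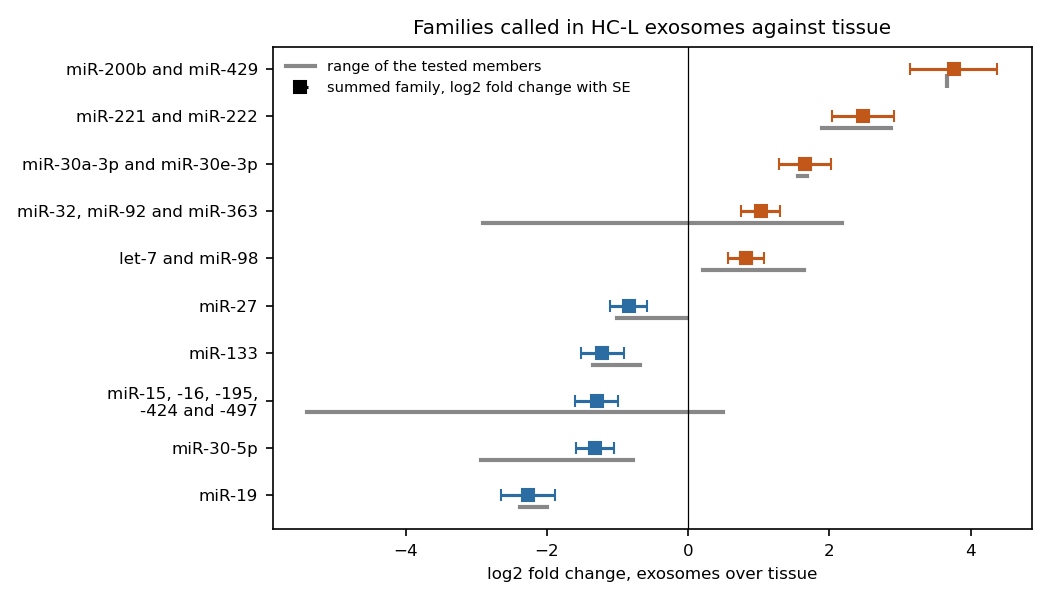
log2 fold change of exosomes over tissue with its standard error for the 10 called families (squares), and below each the range over its tested members (grey). The families of miR-32 and of miR-15 span both sides of 0, and let-7 and the 5p strands of miR-30 lie on opposite sides.

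The 2 strands of a hairpin parted in several cases. Since both come from the same library, their ratio does not depend on how libraries are scaled. Ratios were taken for 42 hairpins, and those of 27 did not overlap between exosomes and tissue, with 3p gaining in exosomes in 16 and 5p in 11. In 7 of the 42 the rarer strand had no exosome read, so the exosome ratio was set by the 0.5 reads added and by depth. miR-381-5p had no read in either kind of sample, yet its hairpin counts as a 5p gain. With 2 reads added instead, the difference of miR-499 moved from -1.20 to 0.71. The counts of 16 and 11 therefore show no direction over the 42 hairpins. Of the 42, 19 had at least 30 exosome reads of the rarer strand, a minimum chosen after the values were seen. The ratios of 12 of these 19 (63.2%) did not overlap, with the 3p strand gaining in exosomes in 10 and the 5p strand in 2. That split depends on the minimum. Under it, miR-27b, miR-143 and miR-7, with 27, 26 and 16 exosome reads of the rarer strand, were 5p gains without overlap. miR-30b, with 11, was a 3p gain without overlap. With 3 libraries against 3, the exact two-sided permutation p cannot go below 0.1, which each of the 12 reached (0.156 after adjustment over the 42).

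miR-30e changed its leading strand. Reads of 3p over 5p had a log2 ratio of 1.33, 1.26 and 0.0876 in exosomes and -3.67, -3.36 and -3.48 in tissue, so 3p led in every exosome library and 5p in every tissue library. In counts, miR-30e-3p was at 2233, 2099 and 891 CPM against 519, 694 and 558 CPM, a rise of 1.56 ± 0.37 (adjusted p = 0.0173), while miR-30e-5p fell as given above. The call of miR-30e-3p was lost without exosome replicate 1 or 2 or tissue replicate 1 (adjusted p up to 0.0839). For miR-30a the log2 ratio went from -5.71, -5.67 and -5.69 in tissue to -1.20, -1.59 and -2.58 in exosomes, so 5p still led. miR-30a-3p rose by 1.68 ± 0.33 (adjusted p = 0.00949), or by 1.37 with an adjusted p of 0.0619 without exosome replicate 1.

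miR-22 went the other way. Its log2 ratio fell from 5.99, 5.90 and 5.95 in tissue to 3.77, 3.29 and 2.80 in exosomes. The common strand miR-22-3p, which is rich in striated muscle, fell by 1.53 ± 0.36 (adjusted p = 0.017), and the rare miR-22-5p rose by 1.08 ± 0.30 (adjusted p = 0.0307). The first call was lost without exosome replicate 1 or tissue replicate 1, and the second without exosome or tissue replicate 1 or 2. Among hairpins with at least 30 exosome reads of the rarer strand, miR-133a was the other in which 5p gained without overlap. Its mean log2 difference was 0.95. In miR-126, miR-148a, miR-28, miR-145, miR-151, miR-7134 and both miR-199 hairpins 3p gained by 0.89 to 1.99. miR-199a-3p and miR-199b-3p have equal counts in every library, so how their reads divide is uncertain. The 2 miR-199 hairpins thus share their 3p values and are not independent, although both are among the hairpins counted above.

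**Figure D5:**
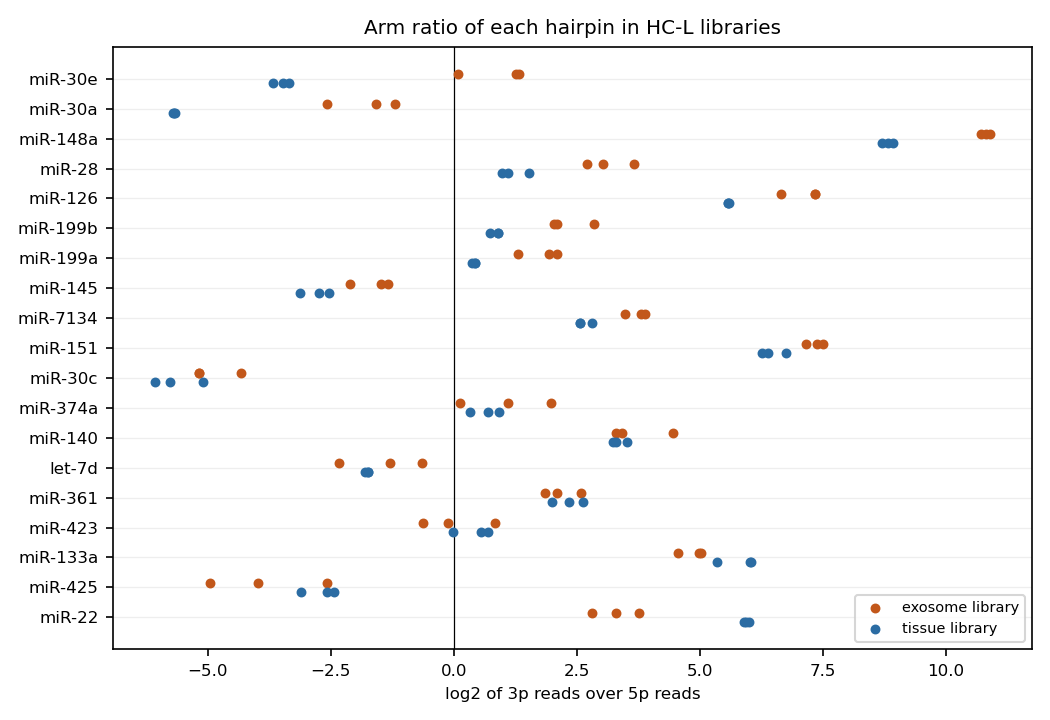
log2 ratio of 3p to 5p reads (0.5 added to each) in every exosome and tissue library for the 19 hairpins with at least 30 exosome reads of the rarer strand. miR-30e lies right of 0 in all exosome libraries and left of 0 in all tissue libraries, and miR-22 is the hairpin shifted farthest to the left in exosomes.

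Neighbouring genes were also compared. In the RefSeq annotation of Sscrofa11.1, used for neighbourhood alone, 281 named miRNAs matched a single place, and 20 groups of genes within 10 kb held more than 1 tested miRNA from different hairpins. In 7 groups members were called only lower, in 3 only higher, and in 1, that of miR-30e and miR-30c-1, both ways, through the 2 strands of miR-30e. Among groups called in 1 direction, only miR-450 with miR-542 (3 of 5 lower) and miR-221 with miR-222 (2 of 3 higher) held more than 1 call. In the first group, 2 of the calls are the strands of miR-542. miR-542-5p passed the filter on low counts through tissue alone and miR-222 through exosomes alone. Both counts were thus in part fixed by the filter. Of all tested miRNAs, 16.7% were lower and 11.7% higher, and whether neighbours move together was not tested.

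The same comparison in the second muscle, HC-P, is set beside these values from a fit of all 12 small RNA libraries. That fit called 16 miRNAs higher and 25 lower in HC-L. No miRNA of 252 differed between the muscles in its exosome to tissue change by edgeR's interaction test (adjusted p under 0.05), with 8 at an unadjusted p under 0.05, and DESeq2 gave 0 and 7. The smallest adjusted p, 0.712, was that of miR-4331-3p, whose log2 fold change was 5.93 ± 0.66 in HC-L, against 9.13 ± 0.76 in HC-P. miR-30e-5p was at -3.14 ± 0.50 and -2.69 ± 0.49, miR-101 at -3.07 ± 0.61 and -2.78 ± 0.60, and miR-1285 at 5.13 ± 0.80 and 5.32 ± 0.81. Of the 28 higher miRNAs 26 had a positive value in HC-P and of the 5 lower ones of all combinations 5 had a negative one. Some of the positive values were within their standard error, such as 0.02 ± 0.83 for miR-155-5p and 0.25 ± 0.61 for let-7c. In HC-L the same fit called 12 of the 28 higher. The share of equal signs over all 252 is not given here, so these counts are no test of agreement. miR-92a and let-7d-3p had the other sign there, at -0.80 ± 0.72 and -1.64 ± 1.07, against 0.90 ± 0.73 and 1.62 ± 1.07 in HC-L, with interaction p of 0.119 and 0.0497 (adjusted 0.956).

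The authors' deposited table of this comparison lists 123 miRNAs, of which 88 have their adjusted p under 0.05, 52 higher and 36 lower in exosomes. All 68 miRNAs called here stand in the authors' deposited table with the same sign. Of them, 61 also have an adjusted p under 0.05 in the authors' deposited table, which is 89.7% of these 68 and 69.3% of the authors' 88. Of the authors' 88, 12 failed the filter on low counts used here. In the authors' deposited table miR-30e-5p has a log2 fold change of -2.76 and miR-101 of -2.70.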

How the data were processed

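The authors deposited a table of raw read counts per mature miRNA and library, and a table of their own log2 fold changes and adjusted p-values for this comparison. The aligner, genome build, miRNA release and counting rule were not given in the sources used here. Counts of the 6 HC-L small RNA libraries were filtered with filterByExpr (minimum count 10), scaled by TMM and fitted with edgeR 4.0.16 in R 4.3.3 with its quasi-likelihood test and Benjamini-Hochberg adjustment over all 239 miRNAs, and the procedure was tested on simulated data. Fold changes carry standard errors of the fit. Samples were grouped by their titles. Alternatives were 3 other scalings, DESeq2 1.42.0, no filter, all 12 libraries, thinned tissue, miRBase names alone, a replicate block, and each library left out. The numbers in the titles were taken to pair exosome with tissue libraries. Deviations from group means correlated at 0.412, 0.404 and 0.588 for numbers 1 to 3, against at most 0.141, 0.136 and -0.404 between unlike numbers. The reported fit leaves this pairing out, and the replicate block takes it in. Arm ratios used exact permutation tests.

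Named miRNAs were the 15 of largest change per direction with at least 50 CPM in either group, the 10 most abundant of each group, called members of the lists, called families and miR-4331-3p. The others named (miR-10390, miR-4332, novel_36, miR-676-3p, miR-22-3p, miR-30d and those given beside a list or hairpin) were chosen after their values were seen. The comparison and the lists were chosen with earlier results of these data known. Neighbouring genes came from RefSeq (312 of 355 names matched). No sequences are printed.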

Additional observations from a re-analysis of the deposited data

How the results depend on the processing

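The counts of 28 higher and 40 lower miRNAs depended on scaling, on the fit and on single libraries. Higher miRNAs numbered 44 with library totals, 43 with DESeq2, 45 with no filter, 16 with all 12 libraries and 46 with the replicate block, and from 16 to 31 with 1 library left out. Lower miRNAs numbered 5 with library totals, 21 with totals without the 3 most abundant miRNAs, 25 with all 12 libraries, 72 with the replicate block and 17 with thinned tissue, and from 16 to 41 with 1 library left out. Families called higher, 5 in the reported fit, numbered 8 with library totals, 3 with no filter, 1 with all 12 libraries and 8 with the replicate block, and from 2 to 7 with 1 library left out. Families called lower, also 5, numbered 0 with library totals, 2 with totals without the 3 most abundant miRNAs, 2 with all 12 libraries, 11 with the replicate block and 3 with thinned tissue, and from 1 to 8 with 1 library left out. Of the named miRNAs and the families that were called, only miR-30c-5p changed sign, to 0.0113 with library totals. Of named miRNAs not called, miR-378 and miR-30d did so too, to 0.16 and 0.02 with library totals, and miR-206 and miR-126-3p, both near 0, in other settings. The medians of 8 of the 25 lists changed sign among the 5 combinations, and measured from the median of all miRNAs 2 did (smooth muscle and miR-181). The share of higher among all calls was 41.2% as reported, 89.8% with library totals, 65% with totals without the 3 most abundant miRNAs, 54.2% with DESeq2-type size factors in edgeR and 51.2% with DESeq2. Apart from the calls added with the block, it removed none of the 68. The causes of these moves were not tested, other than that thinning left 160 miRNAs to test. The shallow exosome libraries limit what can be said of miRNAs under about 10.9 CPM.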

Other observations

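Some miRNAs that were not called varied more between replicate numbers than between exosomes and tissue. miR-196a was at 65.8, 107.5 and 1.75 CPM in exosomes 1 to 3 and at 51.4, 52.2 and 0.173 CPM in tissue 1 to 3. miR-196b-5p was at 90.8, 58.5 and 0 CPM against 37.2, 33.6 and 0.173 CPM. miR-10b was at 34710, 42780 and 7243 CPM against 18220, 19720 and 4710 CPM. The third replicate was the lowest in both kinds of sample for these 3 miRNAs, which were picked after their values were seen. All 3 are encoded within the HOX gene clusters that carry positional identity along the body. miR-10a-5p, also encoded there and at a mean of 2359 CPM in exosomes and 2126 CPM in tissue, was not lowest in the third replicate. A link of this pattern to the HOX clusters was not tested.

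A pair of liver and gut miRNAs stood highest in the first replicate of both kinds. miR-122-5p, the main liver miRNA, was at 2589, 696 and 958 CPM in exosomes and 1449, 55.2 and 86.5 CPM in tissue. miR-192 was at 119.8, 9.49 and 21.0 CPM in exosomes and 606, 59.7 and 120.2 CPM in tissue. miR-122-3p, the rare other strand, was instead highest in replicate 3, from 1, 2 and 8 exosome reads and at 8.25, 3.40 and 12.7 CPM in tissue. Within each replicate number miR-122-5p was thus higher in exosomes and miR-192 lower, and the fit without a replicate block called neither, at 1.42 ± 1.15 and -2.37 ± 1.08 on the log2 scale. With the replicate number as a block in edgeR the log2 fold changes were 2.69 and -2.47, with adjusted p of 4.05e-06 and 4.34e-07. The block also called miR-196b-5p (adjusted p = 0.0474) but not miR-196a (adjusted p = 0.116).

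The predicted novel_414 was at 875 CPM in exosome replicate 3 and between 17.2 and 33.5 CPM in the other 5 libraries.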
